A study of Mus musculus with 9 samples.

Results

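The immunoglobulin kappa variable (Igkv) genes were taken as the rows of the deposited count table whose gene symbol starts with Igkv, which gave 98 of 23317 rows. The table covers haematopoietic stem cells (HSCs) sorted from the bone marrow of wild-type mice in 3 groups of 3 libraries. The groups were young HSC, old HSC, and old HSC treated with ABC294640, which the submitters name as an inhibitor of sphingosine kinase 2 (SphK2), the enzyme that makes sphingosine 1-phosphate. The stated ages are 2 to 4 months and 20 to 24 months, given here to young and old by their wording, with 1500 sorted cells per library. The labels do not state the treatment schedule or the surface markers used in the sort. Nor do they say whether replicates are separate mice, so p-values measure the spread between these libraries, which may be technical.

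A kappa light chain gene is assembled in developing B cells, where 1 of many V segments is joined to 1 of a few J segments, and the joined exon is spliced to the constant exon Igkc. The choice of V segment is kept by all descendants of the cell, so the mix of Igkv transcripts in a sample reflects which B-lineage clones contribute RNA and how much. Antibody-secreting plasma cells, many of which live in bone marrow, hold far more light chain RNA per cell than resting B cells. HSCs lie upstream of this joining step and are not known to express assembled kappa chains. In bulk RNA, fewer cells of a type and less RNA per cell cannot be told apart.

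All 98 identifiers matched GENCODE mouse release M21 (GRCm38) under the same symbol, of 160 Igkv genes annotated there. Of the 98 genes, 96 are annotated as functional V genes and 2 as pseudogenes (Igkv17-134 and Igkv4-83). They lie on chr6:67555497-70704177, in 19 subgroups (the first number of the symbol, which groups V genes by sequence), with 36 on the plus and 62 on the minus strand. The V exons of the 96 functional genes run from 294 to 322 bases, so levels were set side by side as CPM, counts scaled to a common library size, without division by length. Family members are close copies: the median identity of a V exon to its nearest relative among the members was 94.4%, and 70 of the 98 genes share at least 20% of their 31-base words with another gene. The deposited values are estimated counts, of which 49.2% of the non-zero Igkv values were whole, so reads may have been divided between such copies.

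Library totals ran from 16663445 to 23254115 counts, and Igkv genes took 2216 to 2893 counts in young, 4880 to 5442 in old and 4732 to 5342 in treated old libraries. Pairs of libraries of 1 group differed over all genes by more than sampling noise (chi-square per degree of freedom 2.23 to 8.36). This cannot show whether they come from separate mice, and each was counted as a replicate with that unknown. For the Igkv genes the value was nearer sampling noise, at 0.781 to 1.34 in young, 1.45 to 1.73 in old and 1.28 to 1.62 in treated pairs. Over the Igkv genes alone, 0 of 3 young pairs, 3 of 3 old pairs and 2 of 3 treated pairs had a chi-square p under 0.05. Ddx3y, a Y-linked gene, was at 0.663 to 1.18 CPM in young libraries, 35.9 to 44.7 in old and 32.3 to 43.0 in treated old libraries, so age and whatever sets Ddx3y cannot be told apart.

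Young HSC libraries held few Igkv genes at high level, and old libraries held many at moderate level. The summed Igkv level was 114 CPM ± 5.68 (SD of 3 libraries) in young, 285 ± 23.6 in old and 282 ± 13.4 in treated old libraries. As a share of all counts this was 0.0119% ± 0.000528, 0.0280% ± 0.00205 and 0.0274% ± 0.00136. The lowest old library (0.0260%) lay above the highest young library (0.0124%), while old and treated libraries overlapped. Without the 70 genes that share words with others, the shares were 0.00372% ± 0.000390 in young, 0.00493% ± 0.000102 in old and 0.00469% ± 0.000219 in treated old libraries, a smaller gap between young and old.

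The breadth of the repertoire was measured by the effective number of genes, the number of equally abundant genes that would give the same Shannon entropy. It was 14.4, 15.0 and 15.5 in the young libraries in rising order, 45.0 to 46.3 in the old and 37.3 to 37.6 in the treated old libraries. The 3 groups did not overlap, with means of 15.0 ± 0.569, 45.8 ± 0.728 and 37.5 ± 0.165. The top 5 genes of each library held 61.5% ± 1.14 of its Igkv counts in young, 25.2% ± 1.21 in old and 28.4% ± 0.296 in treated old libraries. In each young library 4 genes made up 50% of Igkv counts, against 13 or 14 in old and 11 or 12 in treated old libraries. Exactly 11 genes reached 1% of Igkv counts in every young library, against 34 to 35 in old and 30 to 32 in treated old libraries. These indices are sums over the members and carry no test.

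Counting genes with any read gave a flatter picture. With every library thinned by calculation to 2216 Igkv counts, the smallest total, 65.5 ± 4.61 genes had at least 1 count in young, 72.9 ± 1.11 in old and 64.7 ± 0.835 in treated old libraries, so young and treated libraries overlapped. With at least 3 counts at that depth the values were 39.0 ± 2.10, 60.9 ± 0.750 and 49.7 ± 0.413, and the groups did not overlap. The young libraries thus carried many V genes at 1 or 2 counts beneath a few abundant ones. The 11th gene in the young order, Igkv13-84, held 2.04% of Igkv counts, and the 12th, Igkv8-21, held 0.504%.

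**Figure D1:**
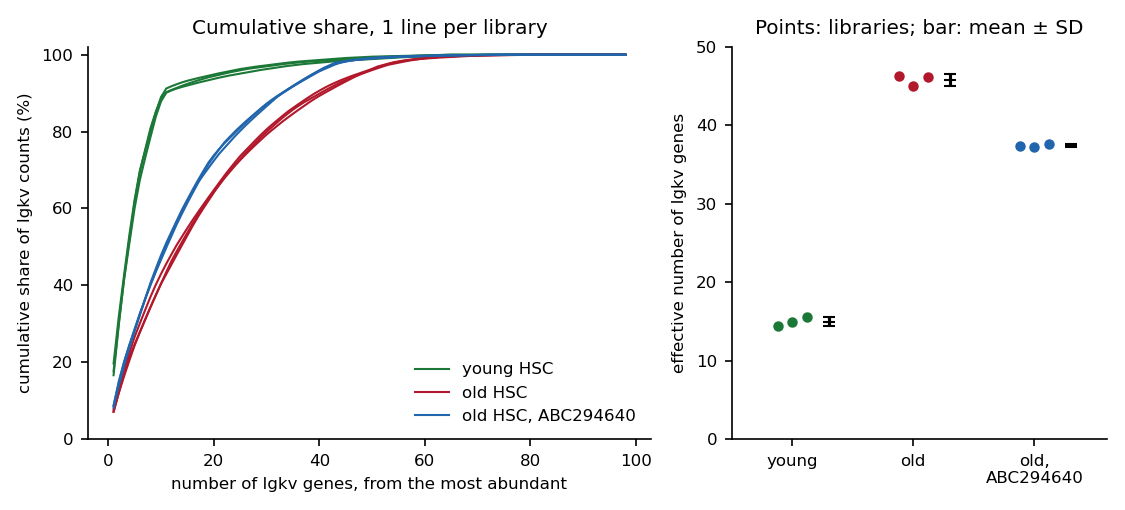
Left, cumulative share of Igkv counts (percent) against the number of genes, from the most abundant, 1 line per library. Right, the effective number of Igkv genes per library, with the mean and SD of each group; young libraries have the lowest effective number of genes (15.0 on average), old libraries the highest (45.8), and treated old libraries lie between (37.5).

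Igkv19-93 led the young repertoire. It belongs to a subgroup with 1 member in the table and shares none of its 31-base words with other genes, so its counts are not open to division between copies. The gene lies at chr6:68736297-68736780 on the minus strand (GRCm38). Its V exon (chr6:68736297-68736594, from GENCODE M21) is shown because this gene had the highest young level, with the last in-frame cysteine codon and the rest of the exon, the germline start of complementarity-determining region 3, in capitals.
Igkv19-93: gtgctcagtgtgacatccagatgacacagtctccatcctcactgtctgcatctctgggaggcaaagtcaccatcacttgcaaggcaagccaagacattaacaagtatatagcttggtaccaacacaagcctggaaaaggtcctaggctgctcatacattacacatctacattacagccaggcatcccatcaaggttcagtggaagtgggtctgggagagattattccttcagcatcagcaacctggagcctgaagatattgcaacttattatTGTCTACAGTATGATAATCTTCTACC
Its level was 23.6, 18.0 and 20.0 CPM in the young libraries, 4.11, 4.25 and 4.46 in the old, and 0.812, 0.492 and 0.205 in the treated old. Every young library lay above every old one, and every old one above every treated one. Old was 4.80-fold lower than young (log2 change -2.26, SE 0.15, edgeR adjusted p 1.17e-10), and treated old was 8.50-fold lower than old (log2 change -3.10, SE 0.28, edgeR adjusted p 2.68e-06). As a share of Igkv counts the gene went from 18.0% ± 1.56 in young to 1.51% ± 0.111 in old and 0.179% ± 0.111 in treated old libraries.

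The next young genes were Igkv4-59, Igkv8-19, Igkv14-126 and Igkv2-137, at 12.7%, 11.4%, 9.99% and 9.40% of young Igkv counts. Igkv8-19 (chr6:70340876-70341453, minus strand) was at 12.9, 13.0 and 12.7 CPM in young libraries, with 312, 266 and 277 counts. In the old libraries it had 1, 1 and 0 counts, and in the treated 0, 0 and 1. A gene ranked 3 in the young order was thus at the edge of detection in all 6 old libraries. The ratio of young to old was 350-fold with an exact 95% counting interval of 96.6 to 2895 (edgeR adjusted p 3.35e-14). This interval covers counting error only, since reads of amplified cDNA without molecular identifiers are not independent molecules.

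Igkv8-19 has a near copy in Igkv8-28 (chr6:70143593-70144166, minus strand), with which it shares 44.1% of its words. The last 300 bases of their V exons (chr6:70340876-70341175 and chr6:70143593-70143892, minus strand) hold all 7 bases at which the exons differ, in capitals, and the whole exons are 97.8% identical. They are set together because reads of the abundant gene could be assigned to the copy.
Igkv8-19: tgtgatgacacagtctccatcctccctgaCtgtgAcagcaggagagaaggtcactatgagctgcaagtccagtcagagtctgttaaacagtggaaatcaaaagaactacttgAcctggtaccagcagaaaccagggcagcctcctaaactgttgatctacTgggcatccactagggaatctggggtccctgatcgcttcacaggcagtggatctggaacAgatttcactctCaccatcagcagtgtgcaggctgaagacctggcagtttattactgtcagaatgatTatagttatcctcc
Igkv8-28: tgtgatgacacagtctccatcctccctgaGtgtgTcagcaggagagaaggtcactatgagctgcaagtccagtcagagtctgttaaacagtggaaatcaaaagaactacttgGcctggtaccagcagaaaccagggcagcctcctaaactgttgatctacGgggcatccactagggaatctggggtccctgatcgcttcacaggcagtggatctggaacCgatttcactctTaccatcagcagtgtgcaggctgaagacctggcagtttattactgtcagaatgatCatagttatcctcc
Igkv8-28 had 0 or 1 counts in each of the 9 libraries, also in the young ones where Igkv8-19 had 266 to 312. The deposited counts thus gave almost no reads to the copy. Whether counting can separate the pair was not tested, since Igkv8-28 had no level of its own in any library.

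The other leading young genes kept more of their level in old cells. Igkv4-59 (chr6:69438218-69438757, minus strand) was at 14.8, 14.4 and 14.3 CPM in young, 3.64, 3.68 and 4.46 in old and 3.54, 3.51 and 2.51 in treated old libraries. Young stood above both old groups without overlap, while old and treated did not differ past the threshold (log2 change -0.31, SE 0.16, edgeR adjusted p 0.634). The fall with age was 3.69-fold (edgeR adjusted p 4.19e-10), for a gene that shares 87.0% of its words with others and is in that respect uncertain.
Igkv14-126 (chr6:67896172-67896642, plus strand) fell from 12.4, 11.0 and 10.7 CPM in young to 3.64, 3.11 and 4.28 in old libraries, 3.09-fold (edgeR adjusted p 4.55e-08). It was at 2.32, 2.65 and 3.75 CPM in the treated libraries, which overlapped the old ones. Igkv2-137 (chr6:67555497-67556216, plus strand), the member farthest from the J segments, fell 9.44-fold from 10.7 CPM ± 0.339 to 1.13 ± 0.364 (edgeR adjusted p 6.98e-11) and shares 57.7% of its words with the gene model Gm42889.

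Old libraries were led by other genes. Igkv12-46 (chr6:69764523-69765022, minus strand) came first in both old groups, at 20.4, 19.9 and 21.8 CPM in old and 22.4, 25.5 and 24.1 in treated old libraries, against 4, 1 and 6 counts (0.166, 0.049 and 0.276 CPM) in the young ones. No old library came near a young one, and the lowest treated library lay just above the highest old one. The rise with age was 127-fold (log2 change 6.91, SE 0.20, edgeR adjusted p 4.74e-16). Treated and old did not differ past the threshold (log2 change 0.21, SE 0.09, edgeR adjusted p 0.496). Igkv12-46 held 35th place in the young order.

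Igkv12-46 is shown beside Igkv12-44, a relative that moved differently between old and treated cells. Their V exons (chr6:69764523-69764820 and chr6:69814631-69814928, minus strand) are 94.6% identical, with the 16 differing bases in capitals.
Igkv12-46: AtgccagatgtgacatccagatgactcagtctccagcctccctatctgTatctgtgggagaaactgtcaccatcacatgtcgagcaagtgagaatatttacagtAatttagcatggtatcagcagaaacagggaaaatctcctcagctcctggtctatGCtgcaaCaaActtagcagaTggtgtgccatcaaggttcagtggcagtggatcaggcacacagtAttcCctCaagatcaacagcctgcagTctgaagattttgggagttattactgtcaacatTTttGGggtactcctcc
Igkv12-44: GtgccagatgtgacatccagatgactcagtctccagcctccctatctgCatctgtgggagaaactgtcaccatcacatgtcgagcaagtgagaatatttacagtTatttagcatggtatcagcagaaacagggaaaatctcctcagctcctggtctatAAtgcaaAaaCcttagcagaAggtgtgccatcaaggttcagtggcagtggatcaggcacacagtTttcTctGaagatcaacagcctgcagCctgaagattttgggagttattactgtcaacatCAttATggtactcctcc
Igkv12-44 was at 0.414, 0.490 and 0.414 CPM in young, 6.76, 5.64 and 7.64 in old and 1.62, 1.85 and 1.33 in treated old libraries. The old libraries stood highest and the treated ones between them and the young. The gene rose 15.2-fold with age (edgeR adjusted p 6.98e-11) and was 4.17-fold lower in treated than in old libraries (log2 change -2.06, SE 0.20, edgeR adjusted p 8.74e-06).

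Igkv15-103 (chr6:68437440-68437925, plus strand) was absent from the young counts, and like Igkv19-93 it shares no 31-base word with another gene. Its V exon (chr6:68437628-68437925, plus strand) is shown as that of the most abundant old gene with no young count, capitals as for Igkv19-93.
Igkv15-103: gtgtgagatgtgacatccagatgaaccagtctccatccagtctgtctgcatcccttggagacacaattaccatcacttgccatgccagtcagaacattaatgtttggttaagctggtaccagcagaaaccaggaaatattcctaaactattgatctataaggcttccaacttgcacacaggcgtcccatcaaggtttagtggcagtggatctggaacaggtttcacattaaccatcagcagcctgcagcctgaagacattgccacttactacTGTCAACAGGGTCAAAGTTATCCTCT
It had 0 counts in all 3 young libraries, 199, 228 and 162 counts in old (11.7, 10.9 and 9.91 CPM) and 199, 200 and 196 in treated old libraries (11.5, 12.3 and 10.1 CPM). Set against a floor of 3 counts over the young group, it was at least 240-fold higher in old (edgeR adjusted p 1.88e-13), and old and treated overlapped. Igkv4-91 also had 0 young counts, with 87 to 136 counts in old and 116 to 189 in treated old libraries, at least 127-fold higher in old (edgeR adjusted p 3.98e-11).

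Igkv8-30 (chr6:70117061-70117620, minus strand) was the one gene in the top 10 of all 3 groups. Its level was 6.01, 6.03 and 5.93 CPM in young, 14.1, 13.0 and 15.5 in old and 15.9, 19.4 and 16.3 in treated old libraries. Its share of Igkv counts nevertheless stayed near 5% to 6%, at 5.27% ± 0.270, 4.98% ± 0.0584 and 6.09% ± 0.377. The rise with age was 2.37-fold (edgeR adjusted p 2.18e-08). Among the 10 leading young genes only Igkv8-30 and Igkv10-94 (1.96-fold, edgeR adjusted p 7.09e-05) rose with age, and the other 8 fell. Relative to the Igkv sum, Igkv10-94 was lower in old than in young (log2 change -0.37, edgeR adjusted p 0.0229) and Igkv8-30 did not pass the threshold (log2 change -0.08, edgeR adjusted p 0.532).

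Igkv10-96 and Igkv1-110 completed the old top 5. Igkv10-96 had 0, 1 and 1 counts in young libraries and 12.5, 13.8 and 15.2 CPM in old, a ratio of 458 with an exact 95% counting interval of 126 to 3788. Igkv1-110 had 0, 0 and 2 counts in young and 11.3, 11.7 and 13.1 CPM in old libraries, a ratio of 397 with an interval of 110 to 3289. In treated libraries Igkv10-96 was at 9.74, 11.0 and 10.9 CPM, below every old library, and Igkv1-110 at 14.1, 14.9 and 14.6, above every old library, neither past the threshold (edgeR adjusted p 0.151 and 0.462). Igkv6-23 (12.5 CPM ± 0.330) and Igkv1-135 (11.9 ± 0.952) stood in the treated top 5 in their place together with Igkv12-46, Igkv8-30 and Igkv1-110. In old libraries Igkv6-23 was at 9.26 CPM ± 0.984 and Igkv1-135 at 9.18 ± 0.293, and neither difference passed the threshold (edgeR adjusted p 0.0971 and 0.163).

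**Figure D2:**
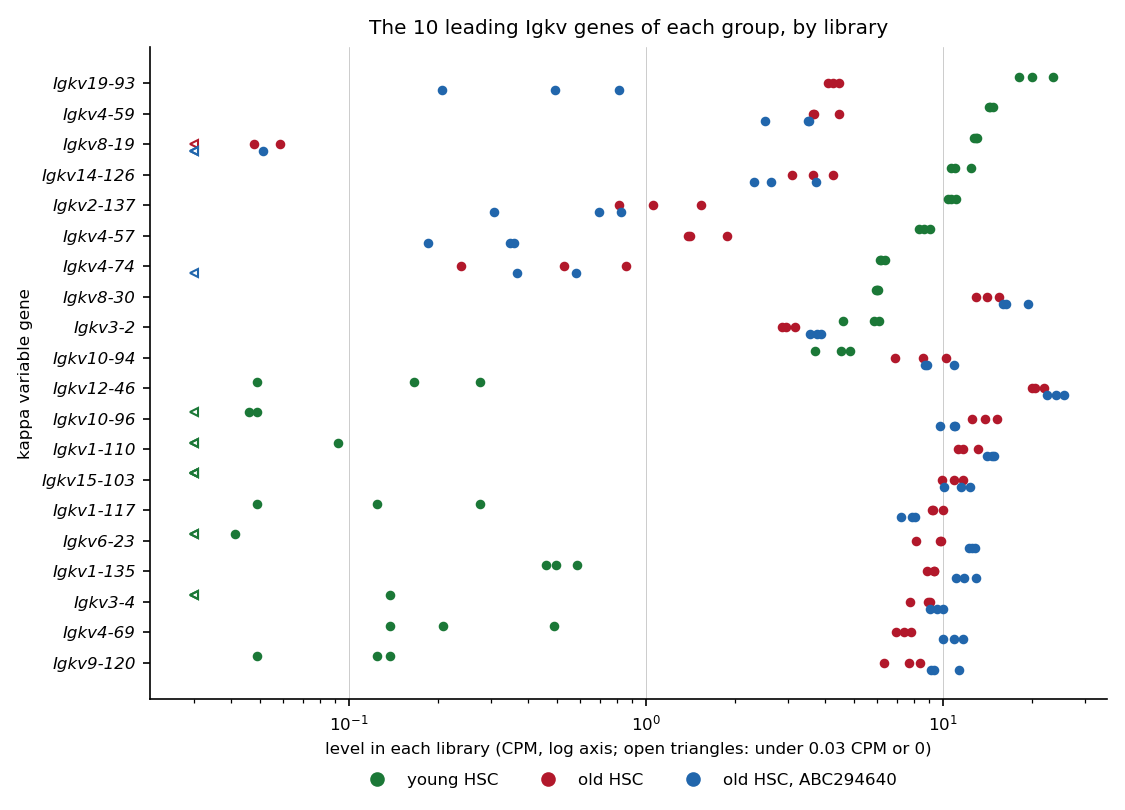
Level of the 10 leading Igkv genes of each group in each library (CPM on a log axis, 1 point per library, coloured by group, open triangles for values under 0.03 CPM or 0). Igkv19-93 and Igkv8-19 are highest in the young libraries, and Igkv12-46 and Igkv15-103 stand near 10 CPM or above in both old groups and near 0 in the young.

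Of the 98 genes, 56 passed the filter on low counts, and 1 row was 0 in every library. A gene that passed through its high group had to differ between ages, so the counts that follow describe the members and support nothing further. In old against young HSC, 48 of the 56 rose and 8 fell (edgeR's quasi-likelihood test, Benjamini-Hochberg adjustment over the 14227 genes tested, threshold 0.05), against 19.6% of all genes tested called higher, 19.8% lower and 39.4% either way. The median log2 change of the 56 was 4.81, or 4.77 with the 8 genes of no young count at their bound, and over all genes tested it was -0.03. Over all 98 genes, 53 had every old library above every young one and 14 the reverse, where 22.8% and 25.6% of all genes tested did so. The sizes ran from a log2 change of 0.84 (Igkv13-84, which was lower relative to the Igkv sum, at -0.47) to values set by near-absence in young cells, with 35 of the 48 risen and 6 of the 8 fallen genes sharing words with others. The 8 that fell were Igkv19-93, Igkv4-59, Igkv8-19, Igkv14-126, Igkv2-137, Igkv4-57, Igkv4-74 and Igkv3-2, all among the 10 leading young genes.

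Igkv4-57 fell from 9.03, 8.62 and 8.32 CPM in young to 1.88, 1.39 and 1.41 in old libraries, 5.56-fold (edgeR adjusted p 5.17e-10). Igkv4-74 fell from 6.17, 6.12 and 6.39 CPM to 0.529, 0.239 and 0.856, 11.5-fold (edgeR adjusted p 9.53e-08). Igkv3-2, which lies 23.5 kb from Igkj1, fell least, from 5.52 CPM ± 0.805 to 3.00 ± 0.154 (edgeR adjusted p 0.000197). Among the largest rises of genes with at least 5 CPM in old cells were also Igkv4-68, with 1, 0 and 0 young counts against 86, 93 and 109 old ones, and Igkv6-23, with 1, 0 and 0 against 168, 170 and 160.

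Treated old against untreated old HSC differed in 10 Igkv genes, all lower with ABC294640, and in 0 higher. A gene that passed the filter on low counts through the old group alone was likely to be lower in treated libraries. Some of the 10 passed in this way, so 10 against 0 describes the members and is no test of direction. Among all genes tested, 0.429% were called lower and 0.773% higher, 1.2% in all. At an unadjusted p under 0.05, 16 Igkv genes were higher and 15 lower by edgeR, and DESeq2 without its independent filtering called 11 lower, the same 10 and Igkv12-89, and 0 higher. The unadjusted count of 16 higher moved with the libraries kept. It was 14, 8 and 14 without old replicate 1, 2 and 3, and 13, 7 and 10 without treated replicate 1, 2 and 3. The unadjusted count of 15 lower was 14 to 19 in these fits. The median log2 change of the 56 tested members was 0.09, with 0.00 over all genes. Over all 98 genes, 20 had every treated library above every old one and 24 below, where 8.34% and 7.12% of all genes tested did so. The treated against old and old against young comparisons share the old libraries.

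Igkv6-20 (chr6:70335841-70336507, minus strand) had the largest change of those named by level. It was at 0.249, 0.049 and 0.092 CPM in young, 4.70, 4.92 and 6.12 in old and 0.058, 0.246 and 0.154 in treated old libraries. The 3 old libraries stood alone, and young and treated overlapped. Treated was 34.4-fold lower than old (log2 change -5.06, SE 0.38, edgeR adjusted p 3.16e-07) and did not differ from young past the threshold (log2 change 0.15, SE 0.71, edgeR adjusted p 0.889). Igkv6-29, which shares 73.9% of the words of Igkv6-20 and is 98.3% identical over the V exon, had 0 counts in all but 1 library, a treated one with 2. How reads were divided between Igkv6-20 and its relatives was not tested.
Igkv6-15 (chr6:70406469-70406992, minus strand) was at 8.76, 5.21 and 9.17 CPM in old and 2.15, 2.34 and 2.36 in treated old libraries, 3.38-fold lower (edgeR adjusted p 0.000476), and had 0, 2 and 4 young counts.

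The remaining genes lower with the inhibitor had under 5 CPM in old cells. All but Igkv4-57, which the naming rule picked for its fall with age, were chosen for mention after their values were seen. Igkv8-21 had 56, 78 and 60 counts in old and 7, 2 and 3 in treated old libraries, 15.7-fold lower (edgeR adjusted p 2.68e-06). Igkv3-10 had 36, 52 and 37 against 0, 1 and 3 counts, Igkv16-104 had 34, 38 and 45 against 1, 1 and 1, Igkv6-25 had 29, 24 and 23 against 0, 0 and 1, and Igkv8-27 had 12, 24 and 22 against 0, 0 and 1. Igkv4-57 had 32, 29 and 23 against 6, 3 and 7 counts, 5.24-fold lower (edgeR adjusted p 0.000526). In none of these did an old and a treated library overlap. Igkv16-104 shares 0.287% of its words with other genes and 7 of the 10 share at least 20%.

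Together the 10 genes held 12.6% ± 0.449 of Igkv counts in old and 1.85% ± 0.114 in treated old libraries, with summed levels of 36.0 CPM ± 4.25 and 5.23 ± 0.308. The other Igkv genes summed to 249 CPM ± 19.4 in old and 277 ± 13.3 in treated old libraries. These 10 were chosen by this contrast, so the sums describe them and are no test. In young libraries they held 27.0% ± 1.47, of which Igkv19-93 held 18.0% and Igkv4-57 7.61%. Of the 10, 8 had risen with age and 2, Igkv19-93 and Igkv4-57, had fallen with age and were lower again with the inhibitor.

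**Figure D3:**
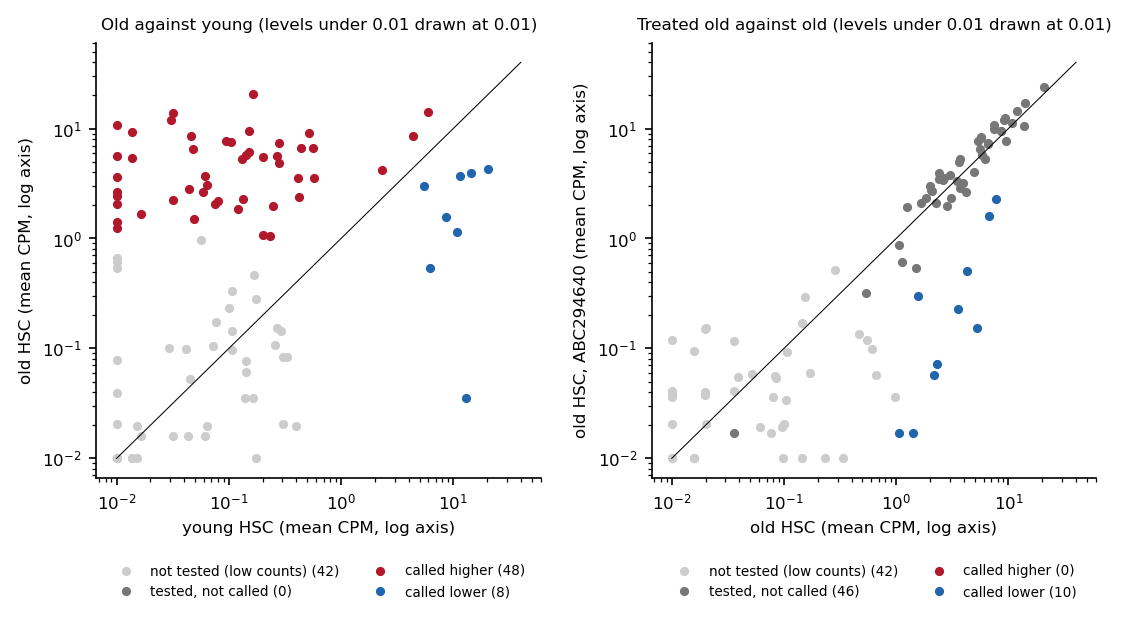
Mean level of each of the 98 Igkv genes in old against young (left) and treated old against old libraries (right), both axes logarithmic in CPM, with levels under 0.01 drawn at 0.01, colours for the edgeR calls and a line of equal levels. The left panel has 48 genes called higher and 8 called lower, and in the right panel the 10 genes called lower lie under that line.

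The 0 rises with ABC294640 depended on the fit. With old and treated libraries fitted alone, 3 genes were called higher, Igkv4-69, Igkv6-23 and Igkv8-16, and with no filter on low counts Igkv4-91 joined them, chosen for mention after their values were seen. Igkv4-69 was at 6.94, 7.41 and 7.83 CPM in old and 11.7, 9.97 and 10.9 in treated old libraries, which did not overlap (log2 change 0.55, edgeR adjusted p 0.0565 in the fit of all libraries and 0.0110 with the pair of groups alone). With a filter of at least 5 CPM in 3 libraries, 29 members were tested and 4 called lower, Igkv12-44, Igkv19-93, Igkv4-57 and Igkv6-15.

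In treated old against young HSC, 41 of the 56 genes were higher and 10 lower, against 19.1% and 18.5% of all genes tested. Over all 98 genes, 44 did not overlap upward and 15 downward, against 23.7% and 24.7%. All 41 were also higher in untreated old than in young HSC, and 8 genes were lower in both, comparisons that share the young libraries. The genes lower in treated than in young cells included Igkv8-21 (log2 change -1.31, edgeR adjusted p 0.0286) and Igkv8-27 (log2 change -3.09, edgeR adjusted p 0.0286), which were higher in old than in young. Neither call held in DESeq2 without independent filtering (adjusted p 0.0857 and 0.0731), which also lost Igkv3-2 (adjusted p 0.0620) and called 7 lower. That of Igkv8-21 was lost without treated replicate 2 or 3 or young replicate 1 or 2 (edgeR adjusted p 0.00935 to 0.118 over the 6 fits that leave out 1 library). That of Igkv8-27 was lost without treated replicate 1 or 2 or young replicate 1 (0.0231 to 0.162).

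The makeup of the repertoire was alike among libraries of 1 group and differed between ages. The overlap of 2 libraries, the sum over genes of the smaller of the 2 shares of Igkv counts, was 91.9% to 94.2% within the groups. It was 81.4% to 83.8% between old and treated old libraries, 21.5% to 23.3% between young and old, and 18.1% to 20.0% between young and treated old. Genes in the top 10 were shared by young and old in 2 cases, by young and treated in 1, and by old and treated in 8. The 5 leading young genes, with 61.5% of young Igkv counts, held 4.58% ± 0.216 in old and 2.57% ± 0.198 in treated old libraries. The 5 leading old genes held 5.47% ± 0.275 in young, nearly all of it Igkv8-30, and 27.5% ± 0.565 in treated old libraries.

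Taking a gene as present with at least 3 counts in every library of a group, 27 genes were present in young, 60 in old and 49 in treated old HSC. Of the 27 young genes, 74.1% were present in old, and of the 60 old genes 33.3% were present in young. Of the 60 old genes 80% were present in treated, and of the 49 treated genes 98.0% in old, the exception being Igkv4-58, with 9 counts in each treated library and 1, 5 and 9 in the old. The 18 genes present in all 3 groups included Igkv8-30, Igkv19-93 and Igkv1-135, and 7 were present in young alone, among them Igkv8-19, Igkv12-98 and Igkv9-123. The 10 present in old alone included 5 of those called lower with the inhibitor, Igkv6-20, Igkv3-10, Igkv16-104, Igkv6-25 and Igkv8-27. These 5 passed the filter on low counts through the old group alone, so their low treated level was in part set by the filter. The count of genes present moves with depth, since young libraries held fewer Igkv counts.

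By subgroup, young counts lay in few families. Igkv4, the largest with 26 genes, held 28.2% ± 1.46 of young, 15.8% ± 0.295 of old and 17.7% ± 0.356 of treated old Igkv counts. Igkv19 held 18.0% of young counts, Igkv8 held 17.6% ± 0.705, Igkv14 held 10.6% ± 0.586 and Igkv2 held 9.40% ± 0.337. In old libraries the counts were spread, with Igkv12 at 12.5% ± 0.531, Igkv6 at 11.9% ± 1.03, Igkv1 at 11.0% ± 0.525 and Igkv8 at 9.87% ± 0.314. Of these, 3 subgroups had been scarce in young libraries, Igkv6 at 0.314% ± 0.0906, Igkv1 at 1.03% ± 0.198 and Igkv12 at 1.30% ± 0.111. In treated libraries Igkv6 held 10.1% ± 0.357 and Igkv16, a subgroup of 1 gene, 0.0202% ± 0.00128 against 0.764% ± 0.114 in old.

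Along the locus, the old counts lay more near Igkj1 and less in the middle than the young ones. The order at the far end rested on where the limit of its bin was set. Of the 98 genes 39 lie within 1000 kb of Igkj1, 31 at 1000 to 2000 kb and 28 farther away. The nearest bin held 25.3% ± 0.586 of young, 46.0% ± 0.297 of old and 44.6% ± 0.994 of treated old Igkv counts. The middle bin held 48.4% ± 0.550, 19.2% ± 0.130 and 18.8% ± 0.482, and the far bin 26.3% ± 0.202, 34.8% ± 0.277 and 36.6% ± 0.512. The middle bin includes Igkv19-93, with 18.0% of young, 1.51% of old and 0.179% of treated old counts. This gene lies at 1986 kb, close to the limit of the bin. Counted in the far bin, it would set the young share there above that of both old groups. V segments in one orientation join to J by deletion of the DNA between them and those in the other by inversion. Genes on the plus strand held 29.3% ± 0.626, 37.4% ± 0.708 and 40.0% ± 1.12 of counts. Of the 10 genes lower with the inhibitor, 7 lie within 1000 kb of Igkj1, and 3 are on the plus strand.

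**Figure D4:**
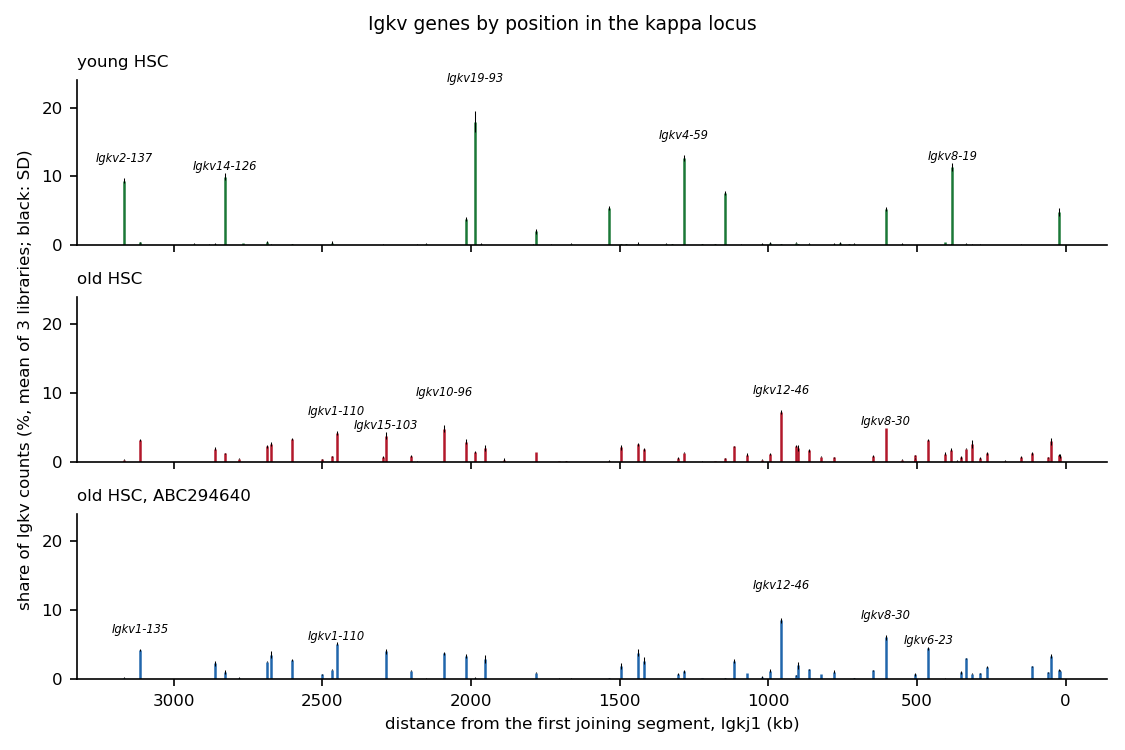
Share of Igkv counts (percent, mean of 3 libraries with SD) of each gene by its distance from Igkj1 in kilobases, in the 3 groups, with the 5 leading genes of each named. Young counts stand in a few tall bars led by Igkv19-93, and those of both old groups are spread over the locus under a highest bar of Igkv12-46.

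Other genes of the light chain moved with the Igkv genes. Igkc, the kappa constant exon to which every kappa V gene is spliced, was at 175, 152 and 166 CPM in young, 566, 480 and 551 in old and 479, 477 and 452 in treated old libraries. It rose with age (log2 change 1.69, SE 0.06, edgeR adjusted p 1.22e-14) and did not differ past the threshold between treated and old (log2 change -0.18, edgeR adjusted p 0.211). Igkv counts per Igkc count were 0.693 ± 0.0187 in young, 0.536 ± 0.0257 in old and 0.601 ± 0.0262 in treated old libraries. Of the 9 tested genes of a light chain list, 8 rose with age and 0 fell, against 19.6% of all genes tested called higher and 19.8% lower. Between treated and old 0 of the 9 were called by edgeR or DESeq2, where edgeR called 1.2% of all genes tested. At an unadjusted p under 0.05, 3 of the 9 were higher and 1 lower by edgeR. Iglv1, a lambda V gene, rose most firmly, from 3.16 CPM ± 0.717 to 92.6 ± 6.80 (edgeR adjusted p 3.33e-18), and Igkj5, the last joining segment, from 0 to 0.0460 CPM in young to 0.529 to 1.16 in old libraries (edgeR adjusted p 7.95e-06).

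Heavy chain genes differed with class. Of 6 tested heavy constant and joining chain genes, 5 rose with age, led by Ighg2c (from 33.0 CPM ± 2.06 to 160 ± 8.95, edgeR adjusted p 1.60e-16), and 1 fell, Ighm, the IgM constant gene (from 95.6 ± 6.70 to 60.6 ± 0.762, edgeR adjusted p 9.66e-09). Among all genes tested, 19.6% were called higher and 19.8% lower with age. Between treated and old, 3 of the 6 were lower and 0 higher, against 0.429% and 0.773% of all genes tested. The 3 were Ighg2b (log2 change -0.39, edgeR adjusted p 0.00167), Igha (log2 change -0.37, edgeR adjusted p 0.00312) and Jchain, the chain that links secreted IgA and IgM (log2 change -0.28, edgeR adjusted p 0.0163). The Jchain call was lost without old replicate 2 or 3 or treated replicate 1 or 2 (edgeR adjusted p 0.0241 to 0.152 over the 6 fits).

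Markers of B-lineage cells did not move as one with the Igkv genes. Among all genes tested, 19.6% were called higher and 19.8% lower in old than in young HSC. Against these shares, 1 or 2 calls in a short list are no result about that list. Of 9 tested plasma cell genes 4 rose with age, namely Xbp1, Fkbp11, Creld2 and Mzb1, and 0 fell. Xbp1 (218 to 241 CPM), Creld2 (100 to 107) and Fkbp11 (75.7 to 91.6) were already abundant in young libraries. The 12 in the list summed to 408 to 450 CPM in young, 643 to 677 in old and 649 to 659 in treated old libraries, most of it from Xbp1. In treated against young HSC the same 4 were higher and 2 lower, Eaf2 and Sdc1 (edgeR adjusted p 0.0130 and 0.0464). DESeq2 without independent filtering called 0 of the list lower there. Among all genes tested, edgeR called 19.1% higher and 18.5% lower in that comparison. Mzb1, an endoplasmic reticulum protein of antibody-secreting cells, went from 0.876 CPM ± 0.241 to 3.03 ± 0.135 (edgeR adjusted p 6.78e-06). The plasma cell surface markers Sdc1 and Tnfrsf17 had 26 to 37 and 2 to 5 counts in young libraries, 18 to 19 and 1 to 3 in old, and 13 to 16 and 3 to 5 in treated old ones. Of 12 tested mature B cell genes, 1 rose (Cd37) and 5 fell by edgeR, among them H2-Ob, Cr2, Ebf1 and Cd22. The fall of H2-Ob (edgeR adjusted p 0.00171) held in all 6 fits that leave out 1 library. It was the 1 fall that DESeq2 without independent filtering called, which left out Cr2, Ebf1 and Cd22. The list of 17 summed to 202 to 218 CPM in young, 212 to 234 in old and 222 to 234 in treated old libraries. Pax5 had 0 to 10 counts over the 9 libraries. Of 9 tested genes of V(D)J joining and pre-B cells, 0 rose and 2 fell (Sox4 and Rag2), of which DESeq2 without independent filtering called 1, without Rag2 (adjusted p 0.114). The list summed to 104 to 109 CPM in young, 81.0 to 84.9 in old and 81.6 to 85.7 in treated old libraries. Most of that fall came from Sox4, at 60.9 to 63.6 CPM in young, 37.2 to 42.1 in old and 36.8 to 38.2 in treated old libraries. The sum thus does not describe the list as a whole.

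The labelled cell type was checked on 12 HSC genes, all detected, which summed to 413 to 428 CPM in young, 346 to 351 in old and 353 to 361 in treated old libraries, with 1 risen (Hlf, edgeR adjusted p 0.0444) and 6 fallen with age. DESeq2 without independent filtering called 0 higher (Hlf adjusted p 0.0882) and 4 lower. The calls of Hlf, Cr2, Ebf1, Cd22 and Rag2 were each lost in 2 to 4 of the 6 fits that leave out 1 library. Among all genes tested, 19.6% were called higher and 19.8% lower with age. Of 4 tested T cell genes 1 rose (Lck) and 1 fell (Cd8a), which is no more than those shares can give in so short a list. The 8 in the table summed to 16.5 to 18.0 CPM in young, 13.5 to 16.0 in old and 12.9 to 14.5 in treated old libraries. Between treated and old, 0 of 46 tested genes of the plasma cell, mature B cell, pre-B cell, HSC and T cell lists were called by edgeR or DESeq2, with 0 higher and 3 lower at an unadjusted p under 0.05 by edgeR. Over all genes tested, edgeR called 1.2% there. No listed gene that the table holds was at 0 in every library. The part of other cell types in the Igkv levels was not tested.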

How the data were processed

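Per the submitters' processing notes, the authors used genome build mm10 with STAR 2.6.1d, Trim Galore 0.6.2, edgeR 3.24.3 and HTSeq 0.10.0, in roles the notes do not state. The deposited table holds expected counts per gene and library. Of all non-zero values 56.0% were whole, and no source states which step made fractions. The values were rounded to whole numbers. Nothing states that counting used strand.

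Genes were tested with edgeR 4.0.16 (R 4.3.3): TMM scaling, the default filter by group, and a quasi-likelihood test. The 9 libraries were fitted together on group alone. Levels are CPM on TMM-scaled library sizes. Positions, exons and shared words came from GENCODE M21, and the distance from the start of Igkj1. Indices were computed on counts in Python 3.11.15. The scripts were tested on simulated data.

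Genes were named by rule: the 5 highest of each group, genes in the top 10 of all 3 groups, the 6 largest rises and falls per comparison among called genes with at least 5 CPM in the higher group and libraries that do not overlap, Igkc, and up to 4 members of each marker list by p. Genes named outside it, among them Igkv3-2, Igkv10-94, Igkv13-84, Igkv4-58 and Igkv4-69, were chosen after their values were seen. The members, the lists and the rule were chosen with earlier results of these data known. Alternatives were RLE size factors, DESeq2 1.42.0 (also, added after seeing the data, without independent filtering), no filter, a stricter filter, the pair of groups alone, a replicate block, leaving out each library, the Igkv sum as library size, and other indices and gene sets.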

Additional observations from a re-analysis of the deposited data

How the results depend on the processing

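Leaving out each library in turn moved no count of Igkv calls at an adjusted p under 0.05 by 1.5 times. It ended calls of Igkv8-21, Igkv8-27 and Igkv4-50 between treated and young, and of no other Igkv gene. Among the other named genes it ended those of Jchain between treated and old and of Cr2, Ebf1, Cd22, Rag2 and Hlf between old and young. Between treated and young it ended those of Rag2, Sdc1, Lck and Eaf2, in 6, 5, 2 and 2 of the 6 fits. Without 1 library, 49 to 51 Igkv genes were higher and 8 lower in old than in young, 10 to 11 lower and 0 higher in treated than in old, and 41 to 42 higher and 8 to 10 lower in treated than in young HSC. The same 10 genes were lower in treated cells in all 6 of these fits, under RLE size factors, with the Igkv sum as library size, with the pair of groups alone, with no filter, and in DESeq2 without independent filtering. With its independent filtering DESeq2 called 0 lower, since it gave an adjusted p to 2 Igkv genes only. With the pair of groups alone 3 genes were higher in treated than in old, and with no filter 4. Taking the Igkv sum as library size moved the median log2 change of all genes in old against young from -0.03 to -1.35. Relative to that sum Igkv10-94, Igkv13-84, Xbp1, Fkbp11, Creld2, Cd37, Hlf and Lck were lower in old, and Igkv8-30, Igkv8-27, Jchain and Mzb1 did not pass. The stricter filter left 29 genes to test, of which 4 were lower in treated than in old, 22 higher in old than in young and 22 higher in treated than in young HSC.

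Whether replicate numbers pair the libraries was not settled. Correlations of same-numbered libraries' deviations ran from -0.081 to 0.132 and did not all pass 0.1. Between young and old they were 0.063, 0.132 and 0.064, above the -0.096 to 0.035 of pairs with unlike numbers. Same-numbered pairs with a treated library ran from -0.081 to -0.020. With the replicate block the counts were the same, 48 higher and 8 lower, 0 and 10, and 41 and 10.

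Values for young, old and treated old libraries moved with the index. The inverse Simpson index was 10.4, 35.7 and 29.1. The top 10 genes held 88.5%, 41.3% and 47.2%. Genes detected with at least 3 counts were 39.0, 60.9 and 49.7, and at 1108 Igkv counts 53.9, 67.4 and 57.8. Without the genes that share words, the share of counts was 0.00372%, 0.00493% and 0.00469%, the effective number 3.30, 13.7 and 10.9, the top 5 share 93.3%, 55.9% and 63.8%, and the genes detected 17.9, 22.6 and 21.1. The order of the groups by effective number was the same in each. Depth limits what can be said of genes at 1 or 2 counts, and close copies limit which of a pair a read came from.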
